A study of Mus musculus with 8 samples.

Results

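The liver secretes most of the proteins of blood plasma, and 10 of their genes are described here: Saa1, Saa2, Saa3, Lcn2, Orm1, Orm2, Hp and Hpx, which are known to be induced in inflammation (positive acute phase genes), and Alb and Ttr, which are known to be reduced (negative acute phase genes). They were taken by gene name from the 54532 genes of the deposited table, and the list was drawn up with earlier results of these data known. All 10 passed the minimum mean of 0.1 FPKM and were among the 16645 genes tested. FPKM divides the fragments of a gene by its length in kilobases and by a size given to its library, here an effective size rather than the reads on genes. All 8 positive genes had a lower mean in METTL3-HKD livers than in METTL3-Flox livers, with ratios of the means from 0.529 for Hpx to 0.709 for Saa3, but none of the 10 genes passed the test across all genes.

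In the acute phase response, cytokines released at a site of injury, above all interleukin-6 and interleukin-1, act on receptors of hepatocytes. Interleukin-6 signals through the shared receptor chain gp130 and the transcription factor STAT3, while interleukin-1 and tumour necrosis factor signal through NF-kappaB, and C/EBP factors act at many of the same genes. The products bind lipids, iron-carrying siderophores, hemoglobin or heme in plasma, and the output of albumin and transthyretin declines as theirs grows.

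The livers came from 4 METTL3-HKD mice (METTL3 flox/-; Alb-iCre, a hepatocyte-specific knockdown of the m6A RNA methyltransferase METTL3) and from 4 METTL3-Flox littermates (METTL3 flox/flox). Both groups underwent 1 h of partial warm liver ischemia and 6 h of reperfusion (I/R), so every value below was measured after injury, and livers without I/R were not analysed here. The Cre recombinase of the METTL3-HKD mice is driven by the promoter of albumin, itself one of the 10 genes, and the age of these mice is not given in the sources used here. Whole liver tissue was sequenced, so fewer cells of a type and less RNA per cell cannot be told apart.

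The libraries held 15861245 to 18434488 reads on genes, rebuilt from the FPKM as described with the processing. The size factors behind the deposited FPKM lay between 1.06 and 1.18 in METTL3-HKD livers and between 0.835 and 0.95 in METTL3-Flox livers, so an unscaled share of reads and an FPKM can order the groups differently. The knockdown target Mettl3 ranged from 1.17 to 1.56 FPKM over the METTL3-HKD livers and from 1.16 to 1.84 FPKM over the METTL3-Flox livers. The groups overlapped (log2 fold change −0.16, adjusted p = 0.556 by limma), with a log2 fold change of 0.047 when scaled to reads on genes, and 933 of the 5076 bases counted for the gene are shared with Tox4 on the opposite strand, so the transcript level did not check the genotype labels. The 7 hepatocyte markers (Apob, Cps1, Asgr1, Tat, Cyp2e1, Serpina1a and Hnf4a) were present in all 8 livers, with summed levels of 3191 to 4481 FPKM in METTL3-HKD livers and 4571 to 5742 FPKM in METTL3-Flox livers. These sums did not overlap, and 1 of the 7 markers, Hnf4a, passed the test, as lower. The part of a lower hepatocyte share in the results below was not tested.

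RefSeq (GRCm38.p6) gives a promoter window for 7 of the 10 genes, namely Saa1, Saa2, Saa3, Lcn2, Orm2, Hpx and Alb, and the 250 bases before each start were searched on both strands for 5 motifs. These were TTCNNNGAA (STAT), TTNNGNAAT (C/EBP), the NF-kappaB motif, the type II interleukin-6 response element CTGGGAA and the TATA box. Of 32851 mouse promoters of this length, they were held by 7.02%, 10.2%, 7.25%, 9.10% and 12.4%. The windows of the 3 Saa genes are shown because Saa1 and Saa2 varied together across the livers and Saa3 varied apart from them, and that of Orm2 because it held matches to a pair of the motifs. They lie at chr7:46742981-46743230 (Saa1, minus strand), chr7:46751583-46751832 (Saa2, plus strand), chr7:46715677-46715926 (Saa3, minus strand) and chr4:63362199-63362448 (Orm2, plus strand), each ending at the base before the RefSeq start of its gene, and are written 5′ to 3′ on the strand of the gene with motif matches in capitals.
Saa1: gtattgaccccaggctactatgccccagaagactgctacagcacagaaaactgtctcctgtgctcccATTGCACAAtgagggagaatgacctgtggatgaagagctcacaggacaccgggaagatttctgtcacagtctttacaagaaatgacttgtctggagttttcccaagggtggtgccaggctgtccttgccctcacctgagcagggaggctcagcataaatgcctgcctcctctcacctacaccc
Saa2: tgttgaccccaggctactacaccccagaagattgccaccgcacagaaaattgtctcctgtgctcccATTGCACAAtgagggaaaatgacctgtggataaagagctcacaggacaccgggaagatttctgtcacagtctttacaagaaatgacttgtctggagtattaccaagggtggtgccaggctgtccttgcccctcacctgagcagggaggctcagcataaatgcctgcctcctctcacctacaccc
Saa3: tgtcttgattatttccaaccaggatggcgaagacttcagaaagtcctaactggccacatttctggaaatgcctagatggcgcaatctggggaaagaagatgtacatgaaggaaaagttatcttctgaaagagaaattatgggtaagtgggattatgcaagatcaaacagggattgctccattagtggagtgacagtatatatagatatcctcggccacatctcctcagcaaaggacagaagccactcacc
Orm2: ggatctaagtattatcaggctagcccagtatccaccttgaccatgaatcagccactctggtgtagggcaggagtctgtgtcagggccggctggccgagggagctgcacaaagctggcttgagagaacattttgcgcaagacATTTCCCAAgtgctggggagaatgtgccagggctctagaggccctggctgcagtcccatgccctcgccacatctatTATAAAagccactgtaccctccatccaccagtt
The match ATTGCACAA in Saa1 and Saa2 and the match ATTTCCCAA in Orm2 are C/EBP motifs read on the opposite strand, and begin 183, 184 and 109 bases before the start. Orm2 also held TATAAA at 33 to 28 bases before the start. Alb held 1 C/EBP match, and Saa3, Lcn2 and Hpx held none of the 5 motifs in this window. The Saa1 and Saa2 windows were identical at 94.8% of 251 aligned positions, and the Saa1 and Saa3 windows at 48.9% of 284. The RefSeq starts of Saa2, Saa3, Lcn2 and Hpx lie inside the gene bounds given below, so these windows overlap the annotated genes. That of Lcn2 (chr2:32387740-32387989) lies wholly inside its gene. A match is a match of letters only.

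Serum amyloid A1 and A2 are the main acute phase apolipoproteins of high-density lipoprotein, and serum amyloid A3 is a related protein made also outside hepatocytes, in macrophages and fat. Saa1 (chr7:46740497-46742980, minus strand) was at 2123, 1830.1, 2844 and 2661 FPKM in the METTL3-HKD livers, here and below in the order of replicates 1 to 4. In the METTL3-Flox livers it was at 7089, 3258, 3724 and 2688 FPKM. METTL3-Flox liver 1 stood highest of all 8, at 2.20 times the mean of the other 3 METTL3-Flox livers, and METTL3-Flox liver 4 lay within the METTL3-HKD range. The means were 2365 ± 469.7 FPKM and 4189.9 ± 1979 FPKM (SD, n = 4 each). The difference on the log2 scale was −0.74, with a standard error of 0.318 and a 95% interval from −1.46 to −0.02. The unadjusted p was 0.0440, and the adjusted p of 0.145 (limma, Benjamini-Hochberg over all genes) missed the threshold. Without METTL3-Flox liver 1, the log2 fold change was −0.46 (adjusted p = 0.212 by limma).

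Saa2 (chr7:46751790-46754313, plus strand) followed Saa1 liver by liver. It was at 1958, 1684, 2774 and 2738 FPKM in METTL3-HKD livers and at 6275, 3314, 3514 and 2449 FPKM in METTL3-Flox livers, and its log2 fold change was −0.71 (adjusted p = 0.159 by limma), or −0.45 without METTL3-Flox liver 1. Within a liver, the ratio of Saa1 to Saa2 stayed between 0.972 and 1.13, and its log2 value differed by −0.03 between the groups (exact permutation test, p = 0.6). The coding sequences of the pair are identical at 95.1% of 366 positions, and 13.2% of the 50-base windows of the Saa1 transcript also occur in the Saa2 transcript, while no window of 100 bases does. How reads matching both genes were assigned is not given in the sources used here, so their levels are not separate measurements beyond doubt.

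Saa3 (chr7:46711998-46715700, minus strand) showed another order of the livers. It was at 77.5, 80.4, 21.3 and 13.3 FPKM in METTL3-HKD livers and at 65.1, 59.3, 118.9 and 28.2 FPKM in METTL3-Flox livers. METTL3-Flox liver 3 was highest, METTL3-HKD livers 3 and 4 were lowest, and the groups overlapped almost throughout. The mean was 48.1 ± 35.8 FPKM against 67.8 ± 37.7 FPKM (SD, n = 4 each), with the widest interval of the 10 genes, −2.17 to 0.74 (log2 fold change −0.72, adjusted p = 0.481 by limma). It was −0.23 without METTL3-HKD liver 4 and −1.10 without METTL3-HKD liver 2. The fewest reads behind any of its values were 642, so counting error was small beside the spread between livers. Relative to Saa1 within a liver, Saa3 ranged from 0.00502 to 0.0440, and the mean of this log2 ratio differed by 0.028 between the groups, with −0.47 to 0.58 as single livers were left out.

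Markers of Kupffer cells and macrophages moved with the group. Of 7 markers, 4 were lower in METTL3-HKD livers (Clec4f, Vsig4, Timd4 and Cd5l), 3 did not pass the test (Marco, Adgre1 and Cd68), and none was at 0. Scaled to reads on genes, 6 of the 7 still had log2 fold changes below 0 but none passed the test, with Clec4f at −1.09 (−1.31 as deposited) and Cd5l at −1.15 (−1.37 as deposited). Without METTL3-Flox liver 1, 5 of the 7 were below 0 and Vsig4 passed the test (−0.75). As each of the 8 livers was left out in turn, Clec4f lost its call 7 times, Vsig4 and Cd5l 6 times each and Timd4 5 times. The log2 fold changes in those fits were −1.47 (Cd5l) to −0.85 (Vsig4). Their summed level was 76.0 to 162 FPKM in METTL3-HKD livers and 149 to 362 FPKM in METTL3-Flox livers. Adgre1, the gene of the macrophage antigen F4/80, was at 8.11, 7.5, 3.49 and 3.34 FPKM in METTL3-HKD livers, which sets livers 1 and 2 above livers 3 and 4, as for Saa3. In METTL3-Flox livers it was at 10.3, 6.17, 8.67 and 8.65 FPKM, in another order than Saa3. The part of these cells in the Saa3 level was not tested.

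Lcn2 (chr2:32384633-32388252, minus strand) encodes lipocalin 2, which binds bacterial siderophores and is made both by hepatocytes in the acute phase and by developing neutrophils, which store it in granules. It was at 858, 562, 796 and 718 FPKM in METTL3-HKD livers. In METTL3-Flox livers it was at 2294, 907, 874 and 620 FPKM. Only METTL3-Flox liver 1 stood apart, at 2.87 times the mean of the other 3. The log2 fold change was −0.51 (95% interval −1.33 to 0.32, adjusted p = 0.372 by limma) and shrank to −0.12 without that liver. Scaled to reads on genes as well, it was 0.042.

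Neutrophil markers were higher. Of 12 markers, 11 were tested and 9 rose in METTL3-HKD livers, among them S100a8 (log2 fold change 4.44, adjusted p = 0.00414 by limma), while Ngp and Camp did not pass the test and Ltf was too low to be tested. Their summed level was 338 to 1657 FPKM in METTL3-HKD livers and 13.4 to 46.5 FPKM in METTL3-Flox livers, and Ly6g, which lost its call without METTL3-Flox liver 2, 3 or 4, was at 0 in 3 METTL3-Flox livers. Camp and Ltf, which are granule genes of immature neutrophils, stayed at or below 0.721 FPKM in every liver. Ngp reached 8.71 FPKM and Mmp8 reached 18.9 FPKM, both in METTL3-HKD liver 1. Monocyte markers rose as well (4 of 5, none at 0, summed level 25.2 to 96.5 FPKM against 1.97 to 5.76 FPKM). The part of infiltrating cells in the Lcn2 level was not tested.

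**Figure D1:**
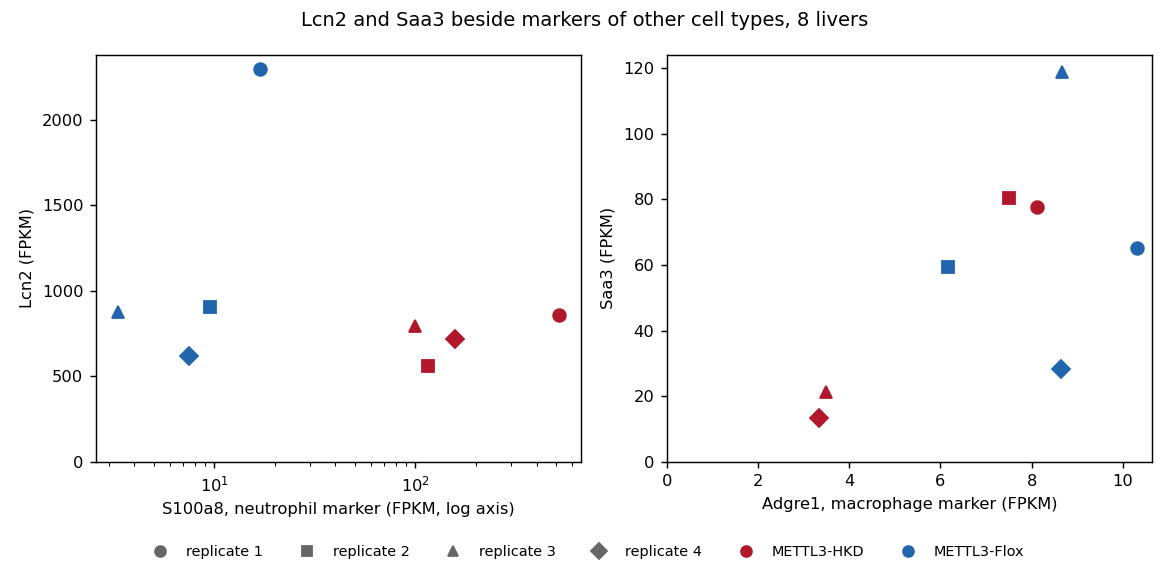
Lcn2 (FPKM) against the neutrophil marker S100a8 (FPKM, log axis) on the left, and Saa3 (FPKM) against the macrophage marker Adgre1 (FPKM) on the right, 1 point per liver with the group in color and the replicate in shape. S100a8 separates the 4 METTL3-HKD livers from the 4 METTL3-Flox livers while Lcn2 does not, and the 2 METTL3-HKD livers lowest in Adgre1 (3.49 and 3.34 FPKM) are the lowest of all 8 in Saa3.

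Orosomucoids, or alpha-1-acid glycoproteins, are abundant plasma carriers of basic drugs. Orm1 (chr4:63344560-63348163, plus strand) was at 4342, 3886, 5429.5 and 5228 FPKM in METTL3-HKD livers and at 11679, 5709.97, 7191 and 5251 FPKM in METTL3-Flox livers. Its log2 fold change was −0.60 (standard error 0.303, adjusted p = 0.208 by limma), or −0.36 without METTL3-Flox liver 1, and METTL3-Flox liver 4 again lay inside the METTL3-HKD range. Orm2 (chr4:63362449-63365878, plus strand) was lower, at 519, 569.8, 458 and 460.1 FPKM in METTL3-HKD livers. In METTL3-Flox livers Orm2 was at 1597, 554, 613 and 428 FPKM. METTL3-Flox liver 1 was at 3.0 times the mean of the other 3, and those 3 spanned the METTL3-HKD range. The log2 fold change of Orm2 was −0.48 (adjusted p = 0.398 by limma), and −0.07 without METTL3-Flox liver 1. Orm1 was 6.82 to 12.3 times Orm2 per length, with no difference of this ratio between the groups beyond the spread (log2 difference −0.12, exact permutation test, p = 0.686). The coding sequences of the pair are identical at 89.9% of 621 positions and share 6.95% of 100-base windows, so some reads may be split between them.

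Haptoglobin captures free hemoglobin and hemopexin captures free heme, and both complexes are cleared from plasma by receptors. Hp (chr8:109575128-109579172, minus strand) was at 7612, 7551, 8951 and 9135 FPKM in METTL3-HKD livers. In METTL3-Flox livers it was at 20463, 11240.3, 12437.5 and 10209.6 FPKM. Every METTL3-HKD liver lay below every METTL3-Flox liver, with means of 8312 ± 848 FPKM and 13588 ± 4673 FPKM (SD, n = 4 each). Hpx (chr7:105591613-105600137, minus strand) was at 7797, 6918, 7582 and 7793 FPKM in METTL3-HKD livers, the tightest METTL3-HKD group of the 10 genes with a coefficient of variation of 5.52%. In METTL3-Flox livers it was at 23367, 10523, 13904 and 9039 FPKM, and again the groups did not overlap.

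Hp and Hpx were the only members whose groups were separate, and the exact permutation test gave p = 0.0286 for each, the smallest that 4 livers against 4 allow. Across all genes tested, 9.95% had every METTL3-HKD liver below every METTL3-Flox liver and 12.7% had every METTL3-HKD liver above, as no member had. The log2 fold changes were −0.66 for Hp (95% interval −1.35 to 0.03, adjusted p = 0.174) and −0.82 for Hpx (95% interval −1.59 to −0.05, unadjusted p = 0.0399, adjusted p = 0.136) by limma. Without METTL3-Flox liver 1, they were −0.44 and −0.55, and all 4 METTL3-HKD livers still lay below the other 3 METTL3-Flox livers in both genes. Hemoglobin transcripts, which are known from red cells, moved with the group. Hbb-bs (235 ± 107 FPKM against 23.1 ± 10.3 FPKM) and Hba-a1 (112 ± 47.3 FPKM against 12.1 ± 6.78 FPKM, SD, n = 4 each) rose in METTL3-HKD livers. None of the 3 red cell markers was at 0, and the summed level of the 3 was 165 to 524 FPKM against 44.4 to 98.2 FPKM. Alas2, the heme synthesis enzyme of red cell precursors, had the opposite sign without passing the test (16.1 ± 8.24 FPKM against 28.9 ± 6.76 FPKM, SD, n = 4 each, log2 fold change −0.98, unadjusted p = 0.0263, adjusted p = 0.103 by limma). The part of blood in the tissue in the results for Hp and Hpx was not tested.

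Albumin, the main protein of plasma, and transthyretin, which carries thyroxine and retinol-binding protein, are the negative members. Alb (chr5:90460897-90476602, plus strand) was at 15089.6, 15929, 19902 and 22088 FPKM in METTL3-HKD livers and at 18465, 19365, 17867 and 18006 FPKM in METTL3-Flox livers. METTL3-HKD livers 1 and 2 lay below and livers 3 and 4 above all METTL3-Flox livers, and the log2 fold change was −0.03 (95% interval −0.72 to 0.66, adjusted p = 0.961 by limma), or a log2 fold change of 0.19 when scaled to reads on genes. Ttr (chr18:20665250-20674324, plus strand) was at 1403, 1932, 2433 and 2873 FPKM in METTL3-HKD livers and at 3008, 2678, 2505 and 2539 FPKM in METTL3-Flox livers. Its log2 fold change was −0.36 (95% interval −0.90 to 0.19, adjusted p = 0.338 by limma), or −0.17 without METTL3-HKD liver 1. Both negative genes varied more among METTL3-HKD livers (coefficients of variation 18.1% and 29.4%) than among METTL3-Flox livers (3.67% and 8.55%), while 7 of the 8 positive genes had their larger coefficient of variation among METTL3-Flox livers, Saa3 being the exception. Much of this rested on METTL3-Flox liver 1, without which the coefficient of Saa1 dropped from 47.2% to 16.1%, and those of Saa1, Saa2 and Hp (16.1%, 18.3% and 9.87%) lay below their METTL3-HKD values (19.9%, 24.1% and 10.2%).

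**Figure D2:**
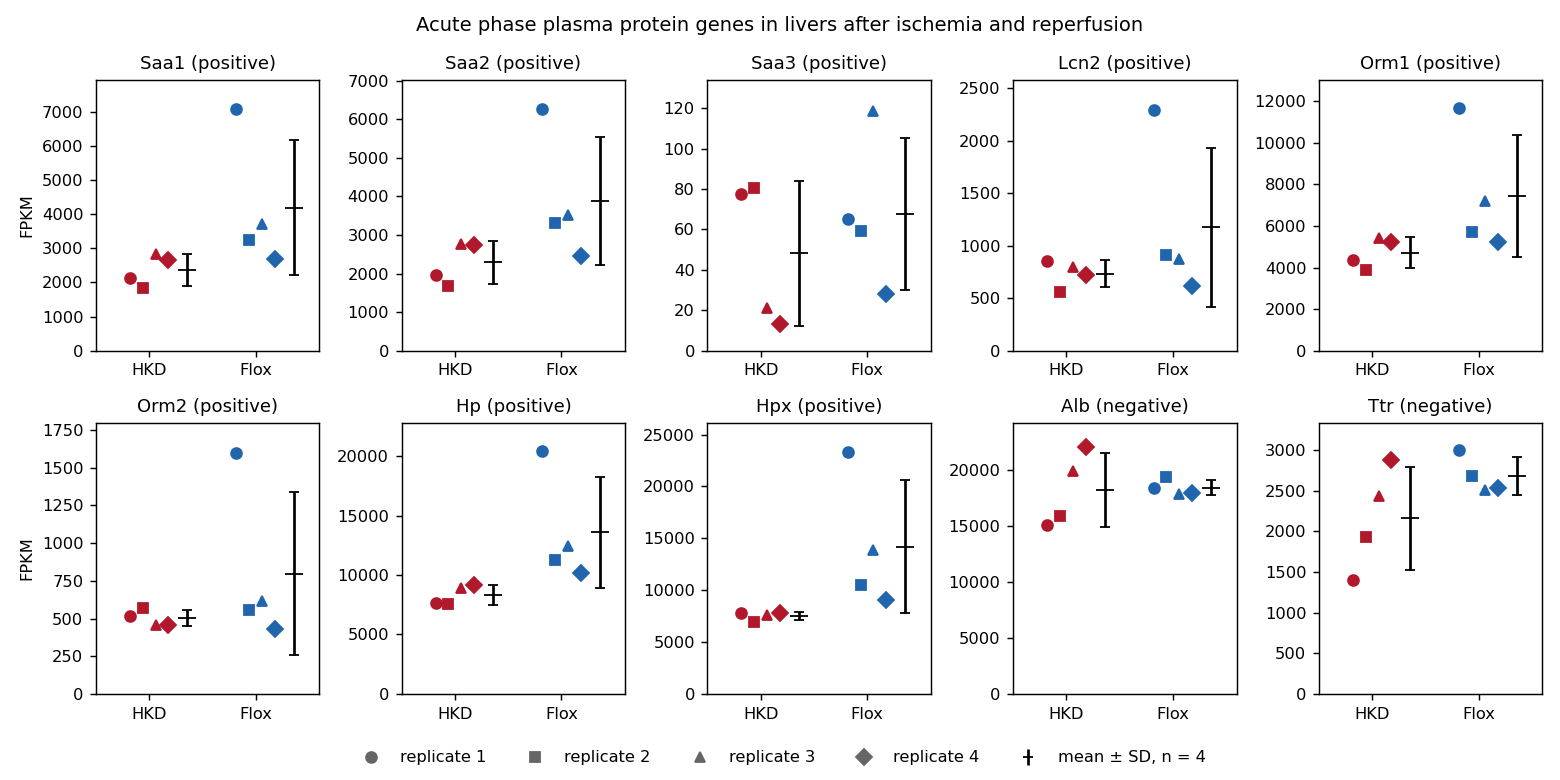
FPKM of each of the 10 genes in the 4 METTL3-HKD livers (red) and the 4 METTL3-Flox livers (blue), with the mean and SD of each group (n = 4) in black and a shape for each replicate number. METTL3-Flox replicate 1 is the highest liver in 7 of the 8 positive genes, and the groups are separate for Hp and Hpx only.

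Across the 8 positive genes, METTL3-Flox liver 1 was the highest of all 8 livers in 7, with Saa3 the exception. METTL3-Flox liver 4 was the lowest METTL3-Flox liver in all 8 genes, and METTL3-HKD liver 2 was the lowest liver overall in 6. In the fit across all genes by limma, 0 of the 10 members were called higher and 0 lower at an adjusted p under 0.05, where 9.05% of all genes tested were higher and 6.63% lower. At an unadjusted p under 0.05, 2 of 10 members were lower (Saa1 and Hpx), beside 15.1% of all genes tested, and voom on the rebuilt reads also called 0 members. The median log2 fold change was −0.68 over the 8 positive genes and −0.195 over Alb and Ttr, beside −0.00 over all genes tested. With scaling to reads on genes, these medians became −0.47, 0.02 and 0.19. All 8 positive genes stayed below 0 under that scaling and also without METTL3-Flox liver 1, but Lcn2 and Orm2 turned to 0.042 and 0.091 when both were applied together.

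**Figure D3:**
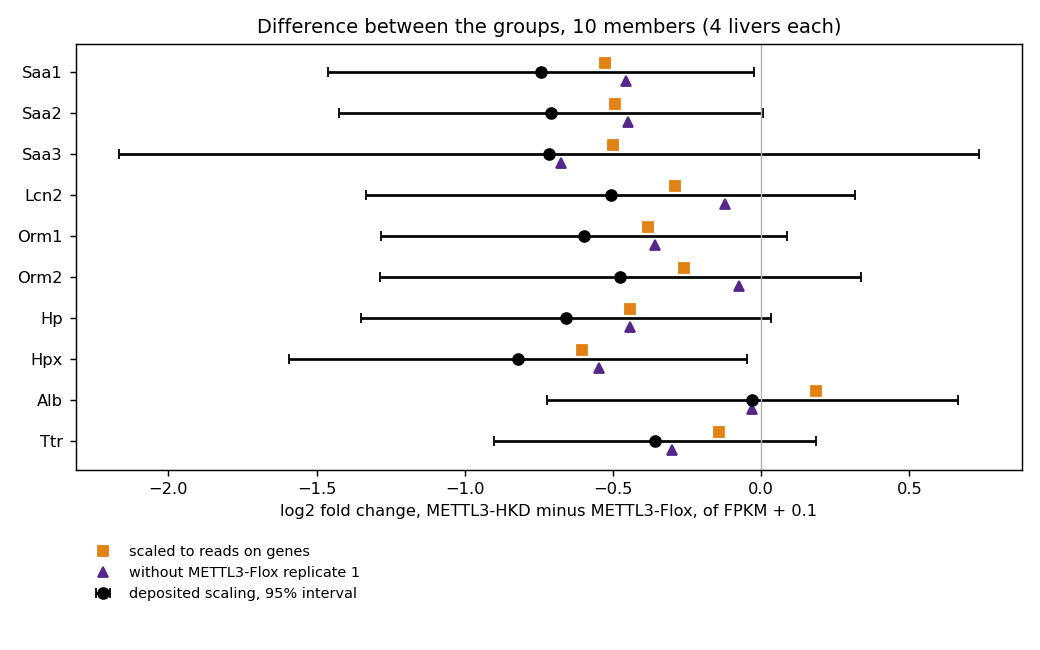
Log2 fold change of each of the 10 genes (METTL3-HKD minus METTL3-Flox, of FPKM + 0.1) with its 95% interval from limma (black), after scaling to reads on genes (orange squares) and without METTL3-Flox replicate 1 (purple triangles). All 8 positive genes lie below 0 in each of the 3 versions, from −0.82 for Hpx in the first to −0.07 for Orm2 in the last, and Alb lies above 0 when scaled to reads.

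Ratios between members of one liver do not depend on scaling between libraries. Saa1 was 0.115 to 0.143 times Alb in METTL3-HKD livers and 0.149 to 0.384 times Alb in METTL3-Flox livers, and Hp was 0.414 to 0.504 and 0.567 to 1.11 times Alb. Both ratios were lower in every METTL3-HKD liver than in any METTL3-Flox liver, with log2 differences of −0.71 and −0.63, or −0.43 and −0.41 without METTL3-Flox liver 1. Alb was 7.69 to 10.8 times Ttr in METTL3-HKD livers and 6.14 to 7.23 times Ttr in METTL3-Flox livers, a log2 difference of 0.33, so Ttr was lower relative to Alb in each METTL3-HKD liver. For these 3 of 10 ratios the exact permutation test gave p = 0.0286, and the adjusted p over the 10 ratios was 0.0952, which misses 0.05. Lcn2 to Alb overlapped (log2 difference −0.48, or −0.094 without METTL3-Flox liver 1, exact permutation test, p = 0.371), as did Hp to Hpx (log2 difference 0.16, exact permutation test, p = 0.200).

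**Figure D4:**
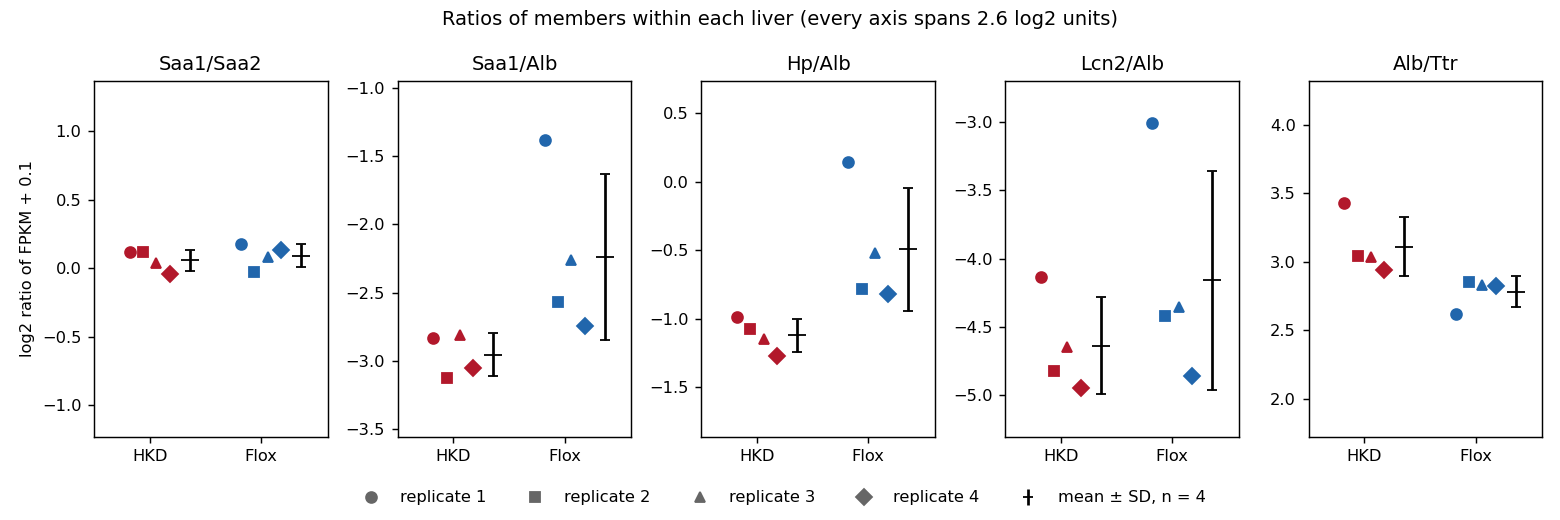
Log2 ratios of the FPKM of pairs of genes within each liver, on axes of equal span, with the mean and SD of each group (n = 4) in black. Saa1/Saa2 hardly varies, Saa1/Alb and Hp/Alb are lower in all 4 METTL3-HKD livers than in any METTL3-Flox liver, Alb/Ttr is higher in all 4, and Lcn2/Alb overlaps.

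Together the 10 genes took 8.81% to 10.2% of the reads on genes in METTL3-HKD livers (9.45% ± 0.653, SD, n = 4) and 9.49% to 13.8% in METTL3-Flox livers (11.01% ± 1.95, SD, n = 4). Alb alone took 4.60% ± 0.484 and 4.04% ± 0.290, the largest share of any gene by mean reads. Hp took 1.44% ± 0.0336 and 2.0% ± 0.517, and Hpx 1.22% ± 0.0949 and 1.95% ± 0.720, again with every METTL3-HKD liver below. Saa1 took 0.630% ± 0.0814 and 0.947% ± 0.363, and Saa3 0.0142% ± 0.0112 and 0.0164% ± 0.00942, both with overlap between the groups.

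Per base of the deposited gene length, the mean FPKM over the 8 livers placed the members in the order Alb (18339), Hp (10949.9), Hpx (10865), Orm1 (6089), Saa1 (3277), Saa2 (3088), Ttr (2421), Lcn2 (954), Orm2 (649.8) and Saa3 (58.0). Hp was above Hpx in 5 of 8 livers, Saa1 above Saa2 in 6 and Saa2 above Ttr in 5, so these neighbours do not differ beyond their spread, while Alb was above Hp in 7 and Lcn2 above Orm2 in 7. The deposited length of Saa1 is 2478 bases, or 99.8% of the gene from end to end, introns included, whereas its first-numbered coding transcript in GENCODE M21 has 609 bases. The same holds for Saa2 (2518 against 606 bases). Those of Saa3 (2606 against 555) and Lcn2 (2623 against 915) also exceed the first-numbered coding transcript, and cover 70.4% and 72.5% of the gene. Per length of that transcript, Saa1 came next to Alb (means of 13335 and 21116), beside Hp (13075) and Saa2 (12833) and ahead of Hpx (10865), and Lcn2 (2734) was set beside Ttr (2489). On this scale Saa1 was above Hp in 3 of 8 livers, Hp above Saa2 in 4 and Lcn2 above Ttr in 2, so these neighbours do not differ beyond their spread either. Comparisons of one gene between livers do not depend on this length.

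Over the 8 livers, 7 of the 10 members (Saa1, Saa2, Lcn2, Orm1, Orm2, Hp and Hpx) had r between 0.726 and 0.991 for each pair. METTL3-Flox liver 1 was the highest liver in each of these 7 genes, and r for the pairs without it was not computed. Among METTL3-HKD livers alone, Orm2 (519, 570, 458 and 460 FPKM) ran in the reverse order of Saa1 and Orm1. Likeness was measured as Pearson's r of log2(FPKM + 0.1) after the mean of each group was subtracted, over the 8 livers, against the 10694 genes that averaged 1 FPKM or more. The gene most like Saa1 was Orm1 (r = 0.991, Spearman's rho = 0.976), and it remained at r = 0.966 without the pair of livers farthest from the median, METTL3-Flox livers 1 and 4. Saa2 was most like Fga, which encodes the alpha chain of fibrinogen (r = 0.994, rho = 0.976, r = 0.995 without those livers). Lcn2 was most like Pole4, which encodes a DNA polymerase epsilon subunit (r = 0.985, rho = 0.976, r = 0.974 without those livers), and next Lrg1, a leucine-rich plasma glycoprotein of the acute phase (r = 0.978), a likeness that dropped to 0.840 without those livers. The genes most like Orm2, Hp and Hpx were Tmem176b (r = 0.992), Ptov1 (r = 0.991) and Fam204a (r = 0.989).

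Saa3 stood outside this group, with r between −0.214 and 0.321 to the other 7 positive genes, and was most like Ikzf1, which encodes a transcription factor of blood cells (r = 0.965, rho = 0.952). Alb and Ttr formed a pair of their own (r = 0.921), with Gstm6 (r = 0.997) and Akr1c6 (r = 0.996) their nearest genes, and Saa3 ran against both (r = −0.822 and −0.726). Since the nearest genes were picked as the best of 10694 over 8 livers that share library and depth, these values are a description. METTL3-HKD livers 1 and 2 lay below livers 3 and 4 in Alb and Ttr and above them in Saa3. Reads per gene split these livers likewise, with a chi-square per degree of freedom of 25.2 and 25.0 within the pairs. Across the pairs it was 57.8 to 83.5. The part of this split in the r values above was not tested.

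Another 20 genes listed as positive acute phase genes were all tested. Of these, 1 was higher (Il1rn), 3 were lower (Saa4, Lbp and A2m) and 16 did not pass the test. Over all genes tested, 9.05% were higher and 6.63% lower. The median log2 fold change was −0.22, with 15 of 20 below 0, beside −0.0028 and 8369 of 16645 over all genes tested. Scaled to reads on genes, the median was −0.0035 and 10 of 20 were below 0, beside 0.193 and 5422 of 16645. Saa4 was on the list although it is the serum amyloid A gene that is expressed constitutively, so its lower level is not that of an induced gene. It was at 150.4, 173.6, 240.2 and 175.8 FPKM in METTL3-HKD livers and at 579.4, 340.8, 454.8 and 322.2 FPKM in METTL3-Flox livers, without overlap (log2 fold change −1.18, standard error 0.216, adjusted p = 0.0112 by limma). It was the only serum amyloid A gene of the 4 to pass the test, and it did so in all 20 alternatives. Lbp, the plasma protein that hands bacterial lipopolysaccharide to CD14, fell from 66.4 ± 13.3 FPKM to 41.3 ± 7.22 FPKM (SD, n = 4 each, log2 fold change −0.68, adjusted p = 0.0302 by limma) and lost its call without METTL3-HKD liver 1, 3 or 4 or METTL3-Flox liver 1 or 3 (log2 fold changes −0.68 to −0.59) or scaled to reads on genes (−0.46). A2m, a broad protease inhibitor, fell from 10.9 ± 6.86 FPKM to 2.06 ± 1.14 FPKM (log2 fold change −2.23, adjusted p = 0.0264 by limma) and lost its call without METTL3-HKD liver 2, 3 or 4 or METTL3-Flox liver 2 or 3 (−2.33 to −1.89). The number of lower genes in this list was 1 rather than 3 without METTL3-HKD liver 3, METTL3-HKD liver 4 or METTL3-Flox liver 3, and 2 genes (Il1rn and Orm3) were higher without METTL3-Flox liver 1.

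Il1rn encodes the interleukin-1 receptor antagonist, which blocks interleukin-1 signalling and is made by hepatocytes as well as by myeloid cells. It rose from 1.82, 1.52, 0.784 and 0.774 FPKM in METTL3-Flox livers to 22.1, 10.6, 7.92 and 9.60 FPKM in METTL3-HKD livers (log2 fold change 3.23, adjusted p = 0.00272 by limma). METTL3-HKD liver 1, the highest, also had the highest summed levels of neutrophil and of monocyte markers. The monocyte marker Ly6c2 was higher in METTL3-HKD liver 2 (6.77 against 3.83 FPKM). The part of these cells in the Il1rn level was not tested. Other genes listed as positive, named here after their values were seen, lay on both sides of 0 without passing the test. Among them were Crp (−0.26), Fga (−0.02), Fgb (−0.21), Serpina3n (−0.46), Apcs (−0.81), Hamp (0.24) and Orm3 (0.43). Livers without I/R were not analysed here, so which of the listed genes were induced cannot be told. Without METTL3-Flox liver 1, Orm3 was at 0.91 and was called higher (adjusted p = 0.0180 by limma). Of 10 other negative acute phase genes, 10 had log2 fold changes below 0 (median −0.40), against 8 when scaled to reads on genes (median −0.19) and 8 without METTL3-Flox liver 1. Of all 16645 genes tested, 8369 were below 0, against 5422 when scaled to reads on genes and 8326 without METTL3-Flox liver 1. Of the 10 genes, 2 passed the test as lower, beside 6.63% of all genes tested. These were F12, coagulation factor XII (log2 fold change −0.58, adjusted p = 0.0281 by limma), and Serpinc1, antithrombin (log2 fold change −0.48, adjusted p = 0.0456 by limma). F12 lost its call without METTL3-HKD liver 1 or 2 or METTL3-Flox liver 2 or 3 (−0.60 to −0.48). Serpinc1 lost its call without any single liver other than METTL3-HKD liver 4 (−0.55 to −0.40) and when scaled to reads on genes (−0.26).

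**Figure D5:**
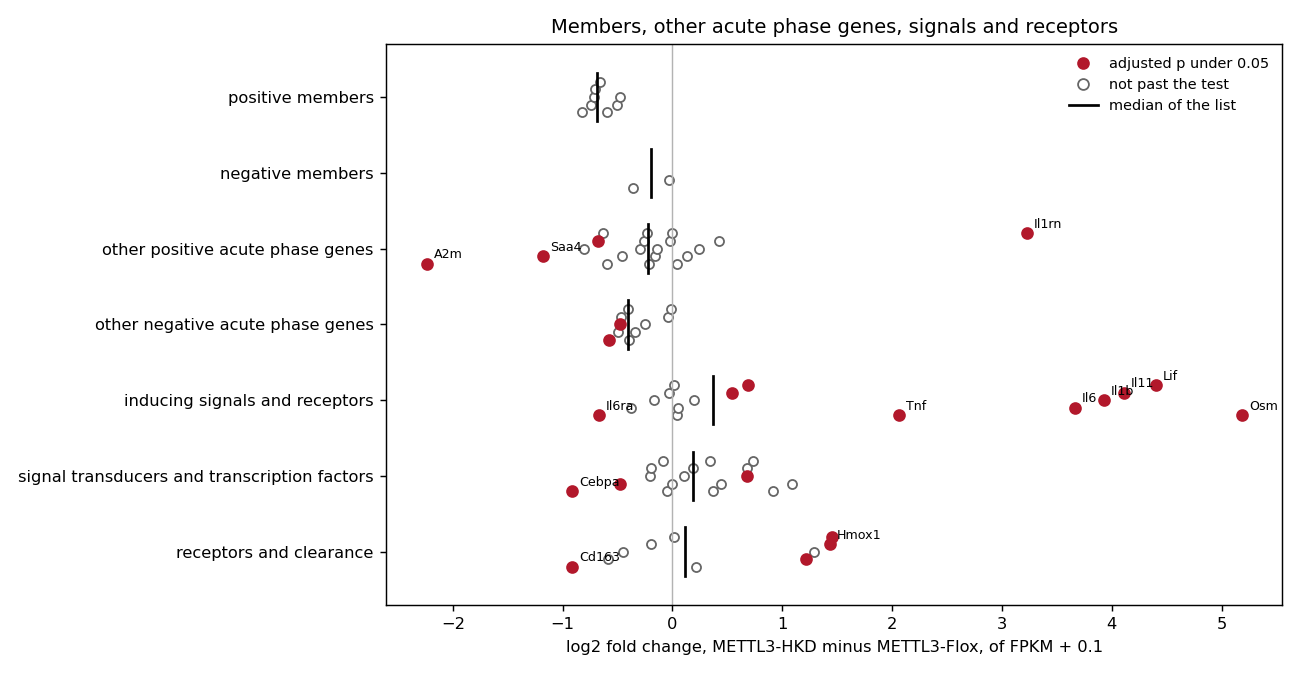
Log2 fold change (METTL3-HKD minus METTL3-Flox, of FPKM + 0.1) of each tested gene of the 7 lists, filled red where the adjusted p from limma was under 0.05 and open otherwise, with the median of each list as a black bar. The cytokines lie far to the right, up to 5.18 for Osm, while the 8 positive members lie between −0.82 and −0.48 and are all open.

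Of 17 ligands and receptors that induce acute phase genes, 16 were tested, of which 8 rose and 1 fell, and Il22 was listed at 0 in all 8 livers. Among 7 tested cytokines, 6 rose (Il6, Il1b, Tnf, Osm, Lif and Il11) and Il1a did not pass the test. Without METTL3-HKD liver 1, the count of higher genes in the list was 5, and Tnf (log2 fold change 1.93, adjusted p = 0.053 by limma) lost its call. Il6 was at 2.85, 0.646, 0.410 and 3.92 FPKM in METTL3-HKD livers, and was listed at 0 in 3 METTL3-Flox livers and at 0.0765 FPKM (3 reads) in the fourth. Its log2 fold change was 3.66 (adjusted p = 0.0102 by limma) with a pseudocount of 0.1 FPKM, and 1.34 to 5.95 over 19 alternatives, all of which called it. Il1b rose from 1.83 ± 0.694 FPKM to 34.1 ± 25.3 FPKM (SD, n = 4 each, log2 fold change 3.93, adjusted p = 0.00381 by limma). The other gp130 cytokines were called higher at 5.18 (Osm), 4.4 (Lif) and 4.11 (Il11) on the log2 scale, each with METTL3-HKD liver 1 highest and no overlap. The METTL3-Flox livers were at 0 or below 0.1 FPKM for these 3 genes, so the sizes depend on the pseudocount and ran from 2.6 to 7.01 (Osm), 1.79 to 6.76 (Lif) and 1.70 to 5.88 (Il11) over 20 alternatives, of which voom did not call Osm (adjusted p = 0.0883). The part of infiltrating neutrophils and monocytes, whose markers rose in the same livers, in these cytokine levels was not tested.

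The receptors divided. Il6ra, which encodes the binding chain for interleukin-6 on hepatocytes, was at 5.99, 4.86, 6.73 and 5.85 FPKM in METTL3-HKD livers and at 8.82, 9.97, 9.0 and 9.60 FPKM in METTL3-Flox livers (log2 fold change −0.67, standard error 0.111, adjusted p = 0.00821 by limma), and was called in all 20 alternatives. The shared signalling chain gp130 (Il6st) rose from 24.6 ± 2.73 FPKM to 36.0 ± 5.16 FPKM (SD, n = 4 each), and the oncostatin M receptor (Osmr) rose from 1.29 ± 0.108 FPKM to 2.16 ± 0.481 FPKM, with log2 fold changes of 0.55 and 0.69 (adjusted p = 0.0242 and 0.0260 by limma). Il6st lost its call without METTL3-HKD liver 1 or 2 or METTL3-Flox liver 2 or 4 (0.48 to 0.57), and Osmr without METTL3-HKD liver 1 or 4 or METTL3-Flox liver 2, 3 or 4 (0.56 to 0.70). Il1r1, Lifr, Tnfrsf1a and the glucocorticoid receptor Nr3c1 were among the 6 receptors that did not pass the test.

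Of 17 signal transducers and transcription factors, 1 rose (Nfkb1), 2 fell (Cebpa and Hnf4a) and 14 did not pass the test. The count of higher genes was 3 without METTL3-HKD liver 3 or METTL3-Flox liver 1, 2 without METTL3-Flox liver 2, and 3 when scaled to reads on genes. Stat3, the factor downstream of gp130, was at 27.2 ± 1.80 FPKM and 27.2 ± 0.928 FPKM (SD, n = 4 each, log2 fold change −0.00, 95% interval −0.18 to 0.18), or a log2 fold change of 0.21 when scaled to reads on genes. Its target and feedback inhibitor Socs3 was at 79.3, 33.4, 28.1 and 50.01 FPKM in METTL3-HKD livers and at 34.5, 18.8, 15.4 and 17.8 FPKM in METTL3-Flox livers, a log2 fold change of 1.09 that missed the threshold (adjusted p = 0.0643 by limma) but passed it in 9 of 20 alternatives, among them without METTL3-HKD liver 3 (1.31) and without METTL3-Flox liver 1 (1.34). Here METTL3-Flox liver 1, the liver highest in 7 positive members, was also the highest METTL3-Flox liver. Cebpb and Cebpd, the C/EBP factors of the acute phase, had log2 fold changes of 0.34 and 0.68 (adjusted p = 0.376 and 0.189 by limma), and both were highest in METTL3-HKD liver 1 and, among METTL3-Flox livers, in liver 1.

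Cebpa, the C/EBP factor of resting hepatocytes, fell from 180.7 ± 13.5 FPKM to 97.7 ± 22.1 FPKM (log2 fold change −0.91, adjusted p = 0.0115 by limma) and was called in all 20 alternatives. Hnf4a, a main hepatocyte transcription factor, fell from 155.2 ± 15.0 FPKM to 111.1 ± 7.08 FPKM (log2 fold change −0.48, adjusted p = 0.0187 by limma, called neither without METTL3-Flox liver 3 or 4, at −0.44 and −0.46, nor when scaled to reads on genes, at −0.26). Nfkb1 rose from 2.46 ± 0.113 FPKM to 4.02 ± 0.716 FPKM (log2 fold change 0.67, adjusted p = 0.0136 by limma, called in all 20 alternatives), and Rela, its usual partner, had a log2 fold change of 0.19 (adjusted p = 0.219 by limma). The reading of Cebpb, Cebpd and Stat3 is limited by overlaps with other genes on the opposite strand, of which each had a lower level.

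Of 14 genes for receptors and clearance of these proteins, 10 were tested, of which 3 rose, 1 fell and 6 did not pass the test. Cd163, the macrophage receptor of haptoglobin-hemoglobin complexes, fell from 7.44 ± 1.61 FPKM to 3.98 ± 1.27 FPKM (SD, n = 4 each, log2 fold change −0.91, adjusted p = 0.0292 by limma), beside the 4 Kupffer cell markers that fell. Its call was lost without any single liver other than METTL3-HKD liver 1 or METTL3-Flox liver 2 (−0.96 to −0.78), and when scaled to reads on genes (−0.70). Lrp1, the receptor of heme-hemopexin complexes, was at 46.1 ± 5.84 FPKM and 64.1 ± 14.7 FPKM (log2 fold change −0.45, adjusted p = 0.128 by limma). It was called lower in 2 of 20 alternatives, among them without METTL3-Flox liver 1 (−0.63, adjusted p = 0.0209 by limma). Hmox1, which encodes the heme-degrading enzyme heme oxygenase 1, rose from 21.2 ± 5.25 FPKM to 57.5 ± 14.8 FPKM (log2 fold change 1.43, adjusted p = 0.00529 by limma, called in all 20 alternatives). Tlr2 and Tlr4, described as receptors of serum amyloid A, rose by 1.45 and 1.21 on the log2 scale (adjusted p = 0.0179 and 0.0294 by limma). Tlr2 lost its call without METTL3-Flox liver 3 (1.45), and Tlr4 without METTL3-HKD liver 1 or 4 or METTL3-Flox liver 2, 3 or 4 (0.96 to 1.27), so that 1 gene of the list was higher without METTL3-Flox liver 3.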

How the data were processed

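The livers of 4 METTL3-HKD and 4 METTL3-Flox mice were grouped by their sample labels. The authors deposited FPKM per gene with a gene length, and the submitters' processing notes name the builds GRCm38 and mm10. The aligner, annotation, strand setting and handling of reads that match several genes are not given in the sources used here. FPKM multiplied by gene length and by 1 effective library size per liver gave whole reads (within 0.1) for 100% of non-zero values. These sizes were 0.840 (METTL3-Flox liver 1) to 1.17 (METTL3-HKD liver 1) times the reads on genes. The median ratio of a liver's FPKM to the geometric mean over the livers was 1.006 in every liver. The deposited values thus already carried this median-of-ratios scaling. Intervals from the fit rest on the spread between livers, moderated across genes.

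A value of log2(FPKM + 0.1) was fitted for each gene averaging 0.1 FPKM or more, using limma 3.58.1 (mean-variance trend, two-sided, R 4.3.3). P-values were adjusted by Benjamini-Hochberg over 16645 genes, with a threshold of 0.05 on the adjusted p. The 0.1 FPKM added before the log understates changes of low genes. Single values were compared by two-sided exact permutation over all 70 arrangements in Python 3.11.15. Lengths, exon overlaps and identities came from GENCODE M21 and promoters from RefSeq.

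The members, lists and rules were chosen with earlier results of these data known. Named genes are the members, Mettl3, up to 6 called genes per list with the smallest adjusted p, Il6, Il1b, Stat3, Socs3, Cebpb and Cebpd, and the genes most like each member. Other genes were named after their values were seen. The alternatives were a pseudocount or a minimum of 1 FPKM, no minimum, other scalings, no trend, array quality weights, a replicate block, voom on rebuilt reads, protein-coding genes only, and each liver left out. Leaving out METTL3-Flox liver 1 together with scaling to reads, and the order per transcript length, were chosen after seeing the data.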

Additional observations from a re-analysis of the deposited data

Results flagged for a closer look

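Orm2 in METTL3-Flox liver 1 stood far from the other 3 livers of its group, at 1597 FPKM where the next was at 613 FPKM, a gap of 0.842 of the range of the group. The log2 ratio of Alb to Ttr in the same liver was the lowest of its group, at 2.62 where the next was at 2.83, a gap of 0.881 of the range. Of 40 groups of 4 livers that were examined in this way, these 2 passed Dixon's criterion, and chance alone passes about 1 in 20. METTL3-Flox liver 1 also had the lowest size factor (0.835) and the largest share of reads on the 10 genes (13.8%), and the part of either in these values was not tested.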

How the results depend on the processing

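Over 20 alternatives for each of the 10 members, 0 of 200 fits called a member, and 158 of 160 for the 8 positive members kept a log2 fold change below 0. The exceptions were Lcn2 (0.042) and Orm2 (0.091) without METTL3-Flox liver 1 and scaled to reads on genes. A minimum of 1 FPKM, no minimum, no trend, a replicate block and protein-coding genes only leave a member's log2 fold change as it was. Their signs were thus fixed in advance. Median-of-ratios scaling hardly moved the values, as its factor was 1.006 in every liver. These alternatives are no further support for the sign. Alb, whose difference was near 0, turned positive when scaled to reads on genes (0.19), to reads outside the members (0.16), with array quality weights (0.031) and with that liver left out and scaled to reads (0.14), and ranged from −0.13 to 0.055 as single livers were left out. Under the 3 scalings to reads, Stat3 turned to 0.21, 0.19 and 0.16, and Mettl3 to 0.047, 0.024 and 0.099. Stat3 ranged from −0.028 to 0.043 as livers were left out. The cause of these shifts was not tested beyond the shift of the median over all genes given with the members.

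Against 1506 genes called higher and 1104 genes called lower, scaling to reads on genes gave 2303 and 374, scaling to reads outside the members 455 lower, no minimum 682 lower, and METTL3-Flox liver 1 left out with scaling to reads 478 lower. Leaving out single livers gave 737 to 1653 higher and 347 to 1123 lower. Counts within the lists moved by single genes. Other positive acute phase genes, 1 higher and 3 lower, ranged from 1 to 2 higher and from 1 to 3 lower as livers were left out, and were 2 and 1 with METTL3-Flox liver 1 left out and scaling to reads. Other negative genes, 2 lower, ranged from 0 to 2, were 1 under either scaling to reads, no minimum, no trend or array weights, and 0 with that liver left out and scaling to reads. Inducing signals, 8 higher, ranged from 5 to 8. Transducers and factors, 1 higher and 2 lower, ranged from 1 to 3 higher and from 1 to 2 lower. They were 3 higher under scaling to reads, array weights, or that liver left out and scaling to reads, and 2 under scaling to reads outside the members, voom or protein-coding genes, with 1 lower under each scaling to reads. Receptors and clearance, 3 higher and 1 lower, ranged from 1 to 3 higher and from 0 to 1 lower, with 0 lower under each scaling to reads and 2 under array weights. Among named genes, 60 alternatives lost a call and 9 gained one.

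As livers were left out, differences that changed sign were those of the log2 ratios Saa3 to Saa1 (−0.47 to 0.58), Lcn2 to Saa3 (−0.27 to 0.71) and Orm1 to Orm2 (−0.28 to 0.029), and of the shares of reads, in percentage points, of Ttr (−0.0467 to 0.00452), Saa3 (−0.00555 to 0.00221), Lcn2 (−0.107 to 0.00665) and Orm2 (−0.0207 to 0.00277).

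Same-numbered livers did not deviate together (correlations 0.0711, −0.0838, −0.0134 and −0.0339), which gives no sign of pairing by number but cannot exclude it. With a replicate block, the number of genes called higher was 971 and that of genes called lower 645, with 1 other positive and 0 other negative acute phase genes lower, and 3 transducers and factors higher and 1 lower. The members had adjusted p-values of 0.232 or more by limma under the block.

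The width of the members' intervals rests on 4 livers a group and on how the fit pools the spread over genes. The standard error of Alb was 0.307, 0.142 without the mean-variance trend and 1.01 with no minimum, and that of Hp 0.306, 0.221 and 0.724. Reads limit little, the fewest behind a member's value being 642. Levels rest on the deposited lengths, and reads shared by Saa1 and Saa2 or by Orm1 and Orm2 cannot be told apart here.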
